A study of Mus musculus with 9 samples.

Results

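The levels of 8 mouse genes of the renin-angiotensin and mineralocorticoid systems were followed across 9 heart RNA-seq libraries. The 8 genes were Agt, Ace, Agtr1a, Agtr2, Nr3c2, Nr3c1, Hsd11b1 and Hsd11b2. They were taken by symbol from a count table of 55401 rows, and each of the 8 had a single row. The study asked about c-Myc in cardiac fibroblasts of failing hearts. It sequenced total RNA of whole hearts from male mice operated at 8 to 12 weeks of age, with 3 hearts in each of 3 groups. Control hearts were wild type and labelled as control, which the design text gives as a sham operation. TAC hearts were wild type and were labelled 12 weeks after transverse aortic constriction, a narrowing of the aortic arch that raises the pressure against which the heart pumps. KO-TAC hearts carried floxed alleles of c-Myc on both chromosomes with an inducible Cre driven from Tcf21 (c-Myc flox/flox; Tcf21 iCre), a gene of cardiac and other fibroblasts, and had the same operation and time. Tamoxifen at 45 mg/kg on 5 days is described for that line. The labels give no strain and do not say whether the wild-type mice received tamoxifen. No knockout heart without constriction and no Cre-carrying heart without floxed alleles was analysed here, so the deletion, the Cre and the drug cannot be told apart in KO-TAC hearts.

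The renin-angiotensin system makes a peptide hormone outside the cell. Angiotensinogen, the product of Agt, is cut by renin to angiotensin I, and angiotensin-converting enzyme, the product of Ace, trims that to angiotensin II. Angiotensin II acts through the type 1 receptor (Agtr1a in mouse, with a second copy, Agtr1b), which constricts vessels and drives growth and fibrosis, and through the type 2 receptor (Agtr2), which often opposes it. It also makes the adrenal gland release aldosterone, the ligand of the mineralocorticoid receptor (Nr3c2). The glucocorticoid receptor (Nr3c1) is its nearest relative, and both bind cortisol or corticosterone. 11-beta-hydroxysteroid dehydrogenase type 1 (Hsd11b1) regenerates active glucocorticoid inside cells and type 2 (Hsd11b2) inactivates it. In the kidney type 2 keeps glucocorticoid away from the mineralocorticoid receptor.

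Total counts per library were 59702513 to 109162107, and mitochondrial genes took 23.78% to 38.45% of them. Levels are given as CPM, counts scaled to a common library size after TMM (trimmed mean of M values, a correction for library composition). Myc, the targeted gene, stood at 2.15, 2.47 and 1.56 CPM in the control hearts, 8.93, 6.22 and 14.2 CPM in the TAC hearts and 4.23, 1.87 and 4.75 CPM in the KO-TAC hearts, here and below in the order of replicates 1, 2 and 3. The TAC libraries stood apart from each other. Summed markers of cardiomyocytes (8 genes) were 34160, 72480 and 11440 CPM in TAC replicates 1, 2 and 3, against 69130 to 70900 CPM in control hearts and 37260, 51970 and 62110 CPM in KO-TAC hearts. For these markers TAC replicate 2 therefore lay near the controls and TAC replicate 3 farthest from them. TAC replicate 2 was not near the controls for every gene, as its Myc level shows. Results are given below without each of these replicates where that matters. In whole-heart RNA, fewer cells of a type and less RNA per cell cannot be told apart. Markers of liver summed to at most 1.34 CPM, of lung to at most 0.109 CPM (2 of its 4 genes at 0 in all libraries) and of atrium to at most 4.96 CPM in any heart.

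RefSeq promoter windows of GRCm38.p6 were found for 5 of the 8 genes (Agt, Ace, Agtr2, Nr3c2 and Hsd11b1), and 3 of them are shown: Ace, the gene that was higher after constriction, Nr3c2, one that was lower, and Agt, whose group means were nearly equal. Each line is the 250 bases before the RefSeq start, written 5′ to 3′ on the gene's own strand: Ace at chr11:105967698-105967947 (plus strand), Nr3c2 at chr8:76902080-76902329 (plus strand, inside the GENCODE span of the gene) and Agt at chr8:124569707-124569956 (minus strand). Capitals mark matches on either strand to TATAAA, to GGGCGG or to CCAAT, common elements of promoters that the general transcription machinery, zinc-finger factors and the factor NF-Y are known to bind.

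Ace: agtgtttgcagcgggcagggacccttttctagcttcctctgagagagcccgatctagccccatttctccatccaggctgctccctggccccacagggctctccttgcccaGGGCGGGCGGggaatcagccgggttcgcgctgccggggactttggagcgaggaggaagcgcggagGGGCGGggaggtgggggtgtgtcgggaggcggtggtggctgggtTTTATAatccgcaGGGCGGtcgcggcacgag
Nr3c2: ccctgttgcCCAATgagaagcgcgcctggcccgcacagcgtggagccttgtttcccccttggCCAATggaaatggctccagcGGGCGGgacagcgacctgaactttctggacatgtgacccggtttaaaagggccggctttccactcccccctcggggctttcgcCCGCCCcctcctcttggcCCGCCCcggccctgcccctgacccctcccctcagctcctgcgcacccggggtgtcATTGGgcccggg
Agt: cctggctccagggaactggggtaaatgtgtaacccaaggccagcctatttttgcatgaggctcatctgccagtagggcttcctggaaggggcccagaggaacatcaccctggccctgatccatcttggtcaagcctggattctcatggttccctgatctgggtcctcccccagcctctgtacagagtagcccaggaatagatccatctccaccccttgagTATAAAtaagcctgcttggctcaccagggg

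The Ace window held TATAAA on the opposite strand from -31 to -26 and GGGCGG starting at -140, -136, -75 and -18, the first pair overlapping. The Nr3c2 window held GGGCGG starting at -168, -85 and -67 and CCAAT starting at -241, -188 and -12, with no TATAAA. The Agt window held TATAAA from -30 to -25 and neither of the other motifs. Positions count back from -1, the base before the start. Of 32851 mouse promoter windows of this length, 12.4% held TATAAA, 32.7% GGGCGG and 33.8% CCAAT on either strand, so each of these is common. The E-box CACGTG, which Myc can bind (6.02% of all windows), and TGTTCT, the half-site that both corticosteroid receptors recognise (16.1%), were each found in 0 of the 6 windows of the 5 genes, which says only that these letters are not in these windows. GC content was 67.2% for Ace, 68.4% for Nr3c2 and 55.6% for Agt. These matches are a description and not evidence of binding.

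Under edgeR's quasi-likelihood test with Benjamini-Hochberg adjustment over 19051 genes, 0 of the 7 genes that passed the count filter (all but Agtr2) were called in TAC against control (adjusted p under 0.05), and so were 0% of all genes tested. At an unadjusted p under 0.05, edgeR had 4 of the 7, against 21.3% of all genes. These were Ace on the higher side and Agtr1a, Nr3c2 and Nr3c1 on the lower side. For the same 4 genes the TAC hearts did not overlap the control hearts, which held for 28.1% of all genes. DESeq2 called the same 4 at an adjusted p under 0.05 (8.53% of all genes), and limma-voom with sample quality weights, which lets a library that departs from its group count for less, called the same 4 (38% of all genes). Without TAC replicate 2 edgeR called 3 of the 7, Ace, Agtr1a and Nr3c2 (27.5% of all genes). The count therefore turns on the tool and on TAC replicate 2, while the signs of these 4 genes did not change under any of the 19 alternatives.

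**Figure D1:**
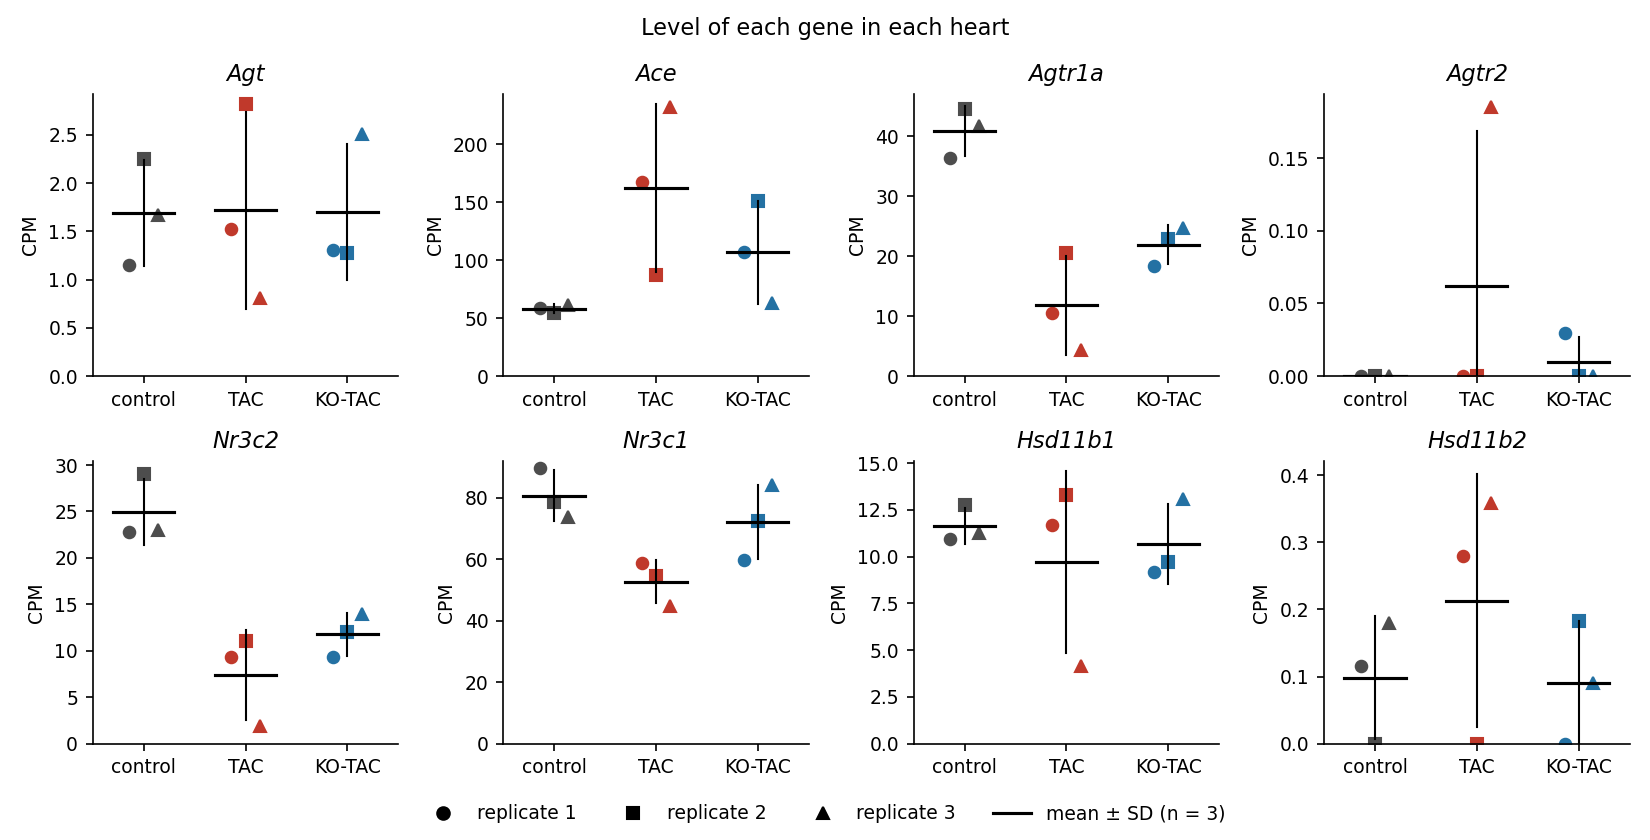
CPM (vertical axis, linear from 0) of each of the 8 genes in each heart, by group; symbols give the replicate and black lines the mean and SD of 3 hearts. Ace is higher and Agtr1a, Nr3c2 and Nr3c1 are lower in each TAC heart than in each control heart, while Agt and Hsd11b1 overlap and Agtr2 and Hsd11b2 stay below 0.4 CPM.

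Agt, the precursor gene (chr8:124556534-124569706), was scarce in every heart, with 70 to 195 counts per library. It stood at 1.15, 2.25 and 1.67 CPM in control hearts, 1.53, 2.82 and 0.810 CPM in TAC hearts and 1.31, 1.28 and 2.51 CPM in KO-TAC hearts. The 3 groups overlapped fully, and their means were 1.69 ± 0.552, 1.72 ± 1.02 and 1.70 ± 0.701 CPM (SD, n = 3 each). The fitted log2 difference of TAC from control was 0.02 with an SE of 0.50 (edgeR adjusted p = 0.98), so these hearts cannot tell a moderate difference in either direction from none. Its sign changed under some alternatives in each of the 3 comparisons.

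Ace, the converting enzyme carried mainly by endothelium (chr11:105967945-105989964), was the member that stood higher after constriction. It measured 59.0, 54.4 and 61.6 CPM in control hearts and 167, 87.1 and 232 CPM in TAC hearts. Every TAC heart exceeded every control heart, with TAC replicate 2 the lowest of the 3. The group means were 58.3 ± 3.68 and 162 ± 72.6 CPM (SD, n = 3 each), a 2.78-fold difference (log2 1.47, SE 0.40). It did not pass edgeR (unadjusted p = 0.0046, adjusted p = 0.14) and passed DESeq2 (adjusted p = 0.012). Without TAC replicate 2 the log2 difference was 1.77 and passed edgeR (adjusted p = 0.011), and without TAC replicate 3 it was 1.11 (adjusted p = 0.25).

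Among the TAC hearts, summed markers of endothelium were high together with Ace in replicates 1 and 3 only. The 7 endothelial markers summed to 782 to 816 CPM in control hearts, with 1215, 698.5 and 1572 CPM in TAC replicates 1, 2 and 3 and 833, 757 and 934 CPM in KO-TAC replicates 1, 2 and 3, and none was at 0. TAC replicate 2 lay below every control heart for these markers and above every control heart for Ace, and among the KO-TAC hearts the order of the markers was the reverse of that of Ace. In TAC against control, 4 of the 7 were higher at an edgeR unadjusted p under 0.05 and 0 were lower. By fitted sign 6 were higher and 1 lower, Kdr (log2 -0.18). Kdr was at 175 CPM in TAC replicate 3, against 210 to 216 CPM in control hearts. Relative to the summed endothelial markers of the same heart, Ace was 69.5 to 75.5 CPM per 1000 marker CPM in control hearts and 124.7 to 147.6 in TAC hearts. The TAC values were thus above the control values in every heart, TAC replicate 2 included, and lay closer together than the Ace levels themselves. The same order of the 2 groups held relative to the summed markers of fibroblasts, cardiomyocytes, and smooth muscle and pericytes.

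Agtr1a, the type 1 angiotensin receptor (chr13:30336441-30382867), stood lower after constriction. It measured 36.3, 44.6 and 41.7 CPM in control hearts, 10.6, 20.6 and 4.32 CPM in TAC hearts and 18.4, 22.9 and 24.7 CPM in KO-TAC hearts. Both operated groups lay wholly below the control hearts. The TAC mean of 11.8 ± 8.21 CPM was 3.46-fold below the control mean of 40.9 ± 4.22 CPM (SD, n = 3 each; log2 -1.79, SE 0.45). It did not pass edgeR (unadjusted p = 0.0029, adjusted p = 0.14) and passed DESeq2 (adjusted p = 0.0065). Without TAC replicate 2 the log2 difference was -2.46 (edgeR adjusted p = 0.0086) and without TAC replicate 3 it was -1.40 (adjusted p = 0.15).

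In heart Agtr1a is known from fibroblasts and from smooth muscle and pericytes. The 8 fibroblast markers summed to 1446 to 1636 CPM in control hearts, 2790, 1466 and 2762 CPM in TAC replicates 1, 2 and 3 and 1732 to 1873 CPM in KO-TAC hearts, so they did not go the way of Agtr1a; 2 of the 8 were higher in TAC at an edgeR unadjusted p under 0.05 and 0 lower. The 8 smooth muscle and pericyte markers summed to 1189 to 1243 CPM in control hearts, 1056, 1009 and 604.5 CPM in TAC hearts and 837 to 1188 CPM in KO-TAC hearts. At that threshold 1 of the 8 was lower in TAC, Abcc9, with a mean of 456 CPM in control and 165 CPM in TAC hearts. By fitted sign 4 of the 8 were higher and 4 lower in TAC, with a median log2 difference of -0.04. The lower sums thus did not hold gene by gene. None of the markers of either list was at 0 throughout. Per 1000 CPM of fibroblast markers, Agtr1a was 25.1 to 27.9 CPM in control hearts, 1.56 to 14 in TAC hearts and 9.80 to 14.2 in KO-TAC hearts. Per 1000 CPM of smooth muscle and pericyte markers it was 29.2 to 37.5 CPM in control hearts, 7.14 to 20.4 in TAC hearts and 19.0 to 27.4 in KO-TAC hearts. On both scales, and relative to endothelial and cardiomyocyte markers, each operated group lay below every control heart. Per 1000 CPM of cardiomyocyte markers Agtr1a was 0.52 to 0.63 CPM in control hearts, 0.284 to 0.377 in TAC hearts and 0.397 to 0.493 in KO-TAC hearts. The KO-TAC hearts lay above the TAC hearts on this scale and overlapped them on the other 3.

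The other angiotensin receptors were almost absent. Agtr2, the type 2 receptor (chrX:21484544-21489164), had 0 counts in 7 of the 9 libraries, 16 counts in TAC replicate 3 (0.185 CPM) and 4 counts in KO-TAC replicate 1 (0.0294 CPM). The zero libraries allow up to 0.0359 to 0.0468 CPM, taking 3 counts as the limit of a count of 0, which covers counting error only. No difference between groups was detectable at this depth. Agtr1b, the second type 1 receptor gene of mouse, was listed at 0 in all 9 libraries.

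Nr3c2, the mineralocorticoid receptor (chr8:76899442-77245012), stood lower after constriction in about the same proportion as Agtr1a. It measured 22.7, 29.1 and 23.1 CPM in control hearts, 9.34, 11 and 1.93 CPM in TAC hearts and 9.38, 12.0 and 13.9 CPM in KO-TAC hearts. No heart of either operated group reached the lowest control heart, and TAC replicate 3 was far below all others. The TAC mean of 7.43 ± 4.83 CPM was 3.36-fold below the control mean of 25.0 ± 3.57 CPM (SD, n = 3 each; log2 -1.75, SE 0.51). It did not pass edgeR (unadjusted p = 0.0067, adjusted p = 0.14) and passed DESeq2 (adjusted p = 0.018). Without TAC replicate 2 the log2 difference was -2.15 (edgeR adjusted p = 0.023), and without TAC replicate 3 it was -1.31 (adjusted p = 0.11).

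Cardiomyocyte markers were lower in the same TAC hearts as Nr3c2, apart from TAC replicate 2. All 8 had a lower fitted level in TAC than in control, with a median log2 difference of -0.65, and 0 of the 8 reached an edgeR unadjusted p under 0.05. None was at 0 in all libraries. Per 1000 CPM of these markers Nr3c2 was 0.325 to 0.410 CPM in control hearts, 0.152 to 0.274 CPM in TAC hearts and 0.224 to 0.252 CPM in KO-TAC hearts. It was therefore below every control heart in each operated heart on this scale too, TAC replicate 2 included, and also relative to fibroblast, endothelial, and smooth muscle and pericyte markers.

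Nr3c1, the glucocorticoid receptor (chr18:39410545-39519421), differed less. It measured 89.7, 78.6 and 73.7 CPM in control hearts, 58.7, 54.6 and 44.9 CPM in TAC hearts and 59.8, 72.5 and 84.1 CPM in KO-TAC hearts. The TAC hearts lay below all others, TAC replicate 1 only narrowly below KO-TAC replicate 1. The TAC mean of 52.7 ± 7.07 CPM was 1.53-fold below the control mean of 80.7 ± 8.19 CPM (SD, n = 3 each; log2 -0.61, SE 0.20). It did not pass edgeR (unadjusted p = 0.014, adjusted p = 0.17) and passed DESeq2 (adjusted p = 0.042). Nr3c1 was lower in TAC than in control relative to fibroblast and endothelial markers, and the 2 groups overlapped relative to cardiomyocyte markers and to smooth muscle and pericyte markers. The smooth muscle and pericyte sum includes Abcc9, with a mean of 456 CPM in control and 165 CPM in TAC hearts. The overlap on that scale leans on this marker.

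Within each heart the balance of the 2 receptors differed between control and operated mice. Per kb of exon, Nr3c2 was 30.1%, 43.9% and 37.1% of Nr3c1 in control hearts, 18.9%, 23.9% and 5.11% in TAC hearts and 18.6%, 19.6% and 19.7% in KO-TAC hearts. Both operated groups lay below the controls, and the 3 KO-TAC hearts were within the TAC range. The exact two-sided permutation p was 0.1 for each operated group against control, the smallest that 3 against 3 hearts can give, and 0.8 for KO-TAC against TAC.

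Hsd11b1, which regenerates glucocorticoid (chr1:193221634-193264075), was nearly level on average. It measured 10.9, 12.8 and 11.3 CPM in control hearts, 11.7, 13.3 and 4.15 CPM in TAC hearts and 9.19, 9.71 and 13.1 CPM in KO-TAC hearts. Only TAC replicate 3 stood clearly below the rest, and the groups overlapped. The TAC log2 difference from control was -0.26 (SE 0.37, edgeR adjusted p = 0.69), and without TAC replicate 3 it was 0.09. Hsd11b1 lies within the span of Lamb3 on the opposite strand, and Lamb3 had 7673 counts in all against 7670 for Hsd11b1, so that without a stated strand setting some reads of one may be counted for the other. Their levels went apart, since Lamb3 averaged 18.5, 5.98 and 8.46 CPM in the control, TAC and KO-TAC hearts.

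Set against the receptor, Hsd11b1 was higher in every operated heart. The ratio of Hsd11b1 to Nr3c2, per kb, was 0.733, 0.668 and 0.744 in control hearts, 1.91, 1.84 and 3.27 in TAC hearts and 1.49, 1.23 and 1.43 in KO-TAC hearts. The 3 groups did not overlap on this ratio (exact two-sided permutation p = 0.1 for each pair of groups, the smallest possible). Hsd11b2, which inactivates glucocorticoid (chr8:105518755-105523988), had 0 to 31 counts per library, at most 0.359 CPM, and was at 0 in 1 heart of each group. No difference of Hsd11b2 between groups was detectable at this depth (TAC against control log2 1.09, SE 1.63, edgeR adjusted p = 0.71).

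**Figure D2:**
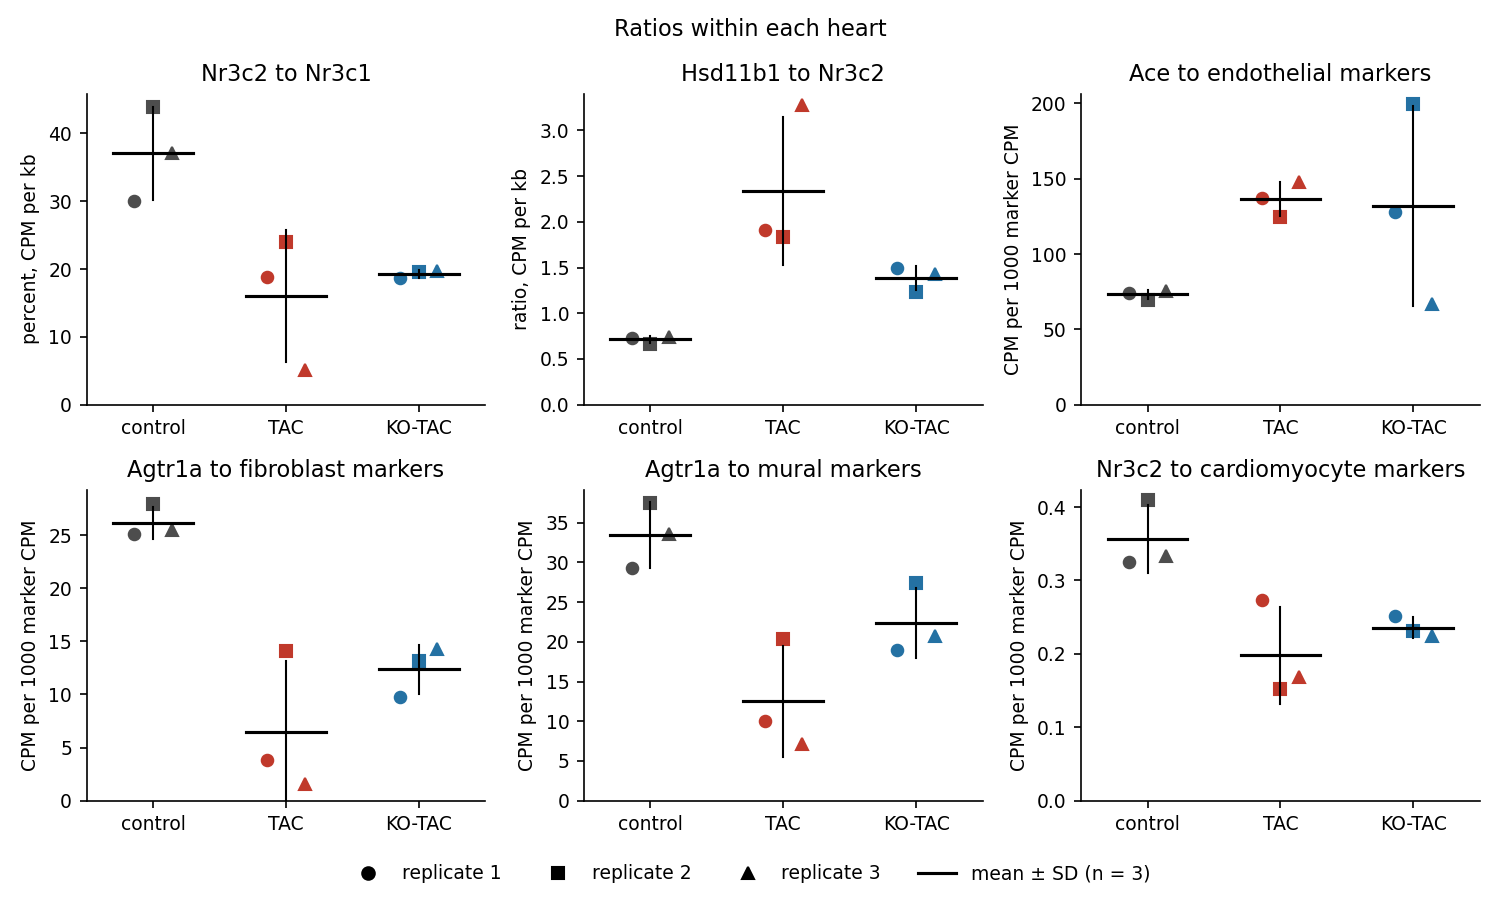
Ratios within each heart (vertical axes, linear from 0, units on each axis), by group, with the mean and SD of 3 hearts; mural markers are those of smooth muscle and pericytes. Nr3c2 relative to Nr3c1 and to cardiomyocyte markers, and Agtr1a relative to fibroblast and mural markers, are lower in both operated groups than in the controls, while Ace relative to endothelial markers is higher in all 3 TAC hearts and in KO-TAC replicates 1 and 2.

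Compared per kb of exon, so that genes of different length can be ranked, control hearts had Agtr1a at 14.7 CPM per kb, Ace at 11, Nr3c1 at 10.5, Nr3c2 at 3.86, Hsd11b1 at 2.74, Agt at 0.895 and Hsd11b2 at 0.0536 CPM per kb. In TAC hearts Ace came first at 30.7 CPM per kb, followed by Nr3c1 at 6.86, Agtr1a at 4.24, Hsd11b1 at 2.29 and Nr3c2 at 1.15 CPM per kb. In KO-TAC hearts the order was Ace at 20.2, Nr3c1 at 9.39, Agtr1a at 7.88, Hsd11b1 at 2.51 and Nr3c2 at 1.82 CPM per kb. Ace thus stood above Agtr1a in every operated heart and below it in every control heart. Compared within each heart, neighbours in these orders changed places for Ace and Nr3c1 among control hearts, and for Nr3c1 and Agtr1a and for Nr3c2 and Agt among TAC hearts, while each other neighbouring pair of the genes named kept its order in all 3 hearts of its group. The ratio of Ace to Agtr1a per kb was 0.642 to 0.856 in control hearts, 8.34, 2.23 and 28.3 in TAC hearts and 3.07, 3.49 and 1.34 in KO-TAC hearts. Agt and Hsd11b2 stayed the lowest of the 7 in all 3 groups.

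KO-TAC against TAC sets the knockout line against wild type under pressure load, where the deletion, the Cre and the drug cannot be told apart. In it edgeR called 0 of the 7 genes at an adjusted p under 0.05, as it did 0% of all genes. At an unadjusted p under 0.05 it had 0 of the 7 (7.45% of all genes). DESeq2 called 0 of the 7 (1.02% of all genes) and limma-voom called 1, Agtr1a (5.23% of all genes). For 1 gene, Nr3c1, the 2 groups did not overlap, as for 9.96% of all genes. The fitted differences of Ace, Agtr1a, Nr3c2 and Nr3c1 had the opposite sign to those of TAC against control. Both comparisons use the same 3 TAC hearts, so that opposite sign is partly built in.

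Agtr1a averaged 22 ± 3.25 CPM in KO-TAC hearts, above the TAC mean by 0.90 on the log2 scale (SE 0.44, edgeR adjusted p = 0.67). The groups overlapped through TAC replicate 2, and the difference was 1.57 without that library (adjusted p = 0.074) and 0.50 without TAC replicate 3. Nr3c1 averaged 72.1 ± 12.1 CPM and was above TAC by 0.45 (SE 0.20, unadjusted p = 0.053, adjusted p = 0.67). Nr3c2 averaged 11.8 ± 2.28 CPM and was above TAC by 0.66 (SE 0.50, adjusted p = 0.73), with 1.07 without TAC replicate 2 and 0.22 without TAC replicate 3. Ace averaged 107 ± 44.3 CPM, with 107, 151 and 62.7 CPM in replicates 1, 2 and 3, and its log2 difference from TAC was -0.60 (SE 0.39, adjusted p = 0.72), with -0.89 without TAC replicate 2 and -0.24 without TAC replicate 3. Its KO-TAC hearts spanned from just above the controls to within the TAC range.

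Against control hearts, the KO-TAC hearts did not overlap for 3 of the 7 genes, as for 26.5% of all genes: Ace was higher and Agtr1a and Nr3c2 were lower. The log2 difference was 0.87 for Ace (SE 0.39), -0.90 for Agtr1a (SE 0.44) and -1.09 for Nr3c2 (SE 0.50), each with an edgeR adjusted p of 0.85. Ace in KO-TAC replicate 3, at 62.7 CPM, exceeded the highest control by about 1 CPM. Per 1000 CPM of endothelial markers, Ace in that heart was 67.1 CPM, below the control hearts at 69.5 to 75.5. The KO-TAC and control hearts thus overlapped for Ace on this scale, and also relative to fibroblast markers. Relative to cardiomyocyte markers and to smooth muscle and pericyte markers the KO-TAC hearts were higher. No gene of the 7 reached an unadjusted p under 0.05 in edgeR (5.76% of all genes), DESeq2 called 0 (0.467% of all genes), and limma-voom called these 3 (5.2% of all genes). Nr3c1, at a log2 difference of -0.16 (SE 0.20), Hsd11b1 at -0.13 and Agt at 0.01 overlapped the controls.

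**Figure D3:**
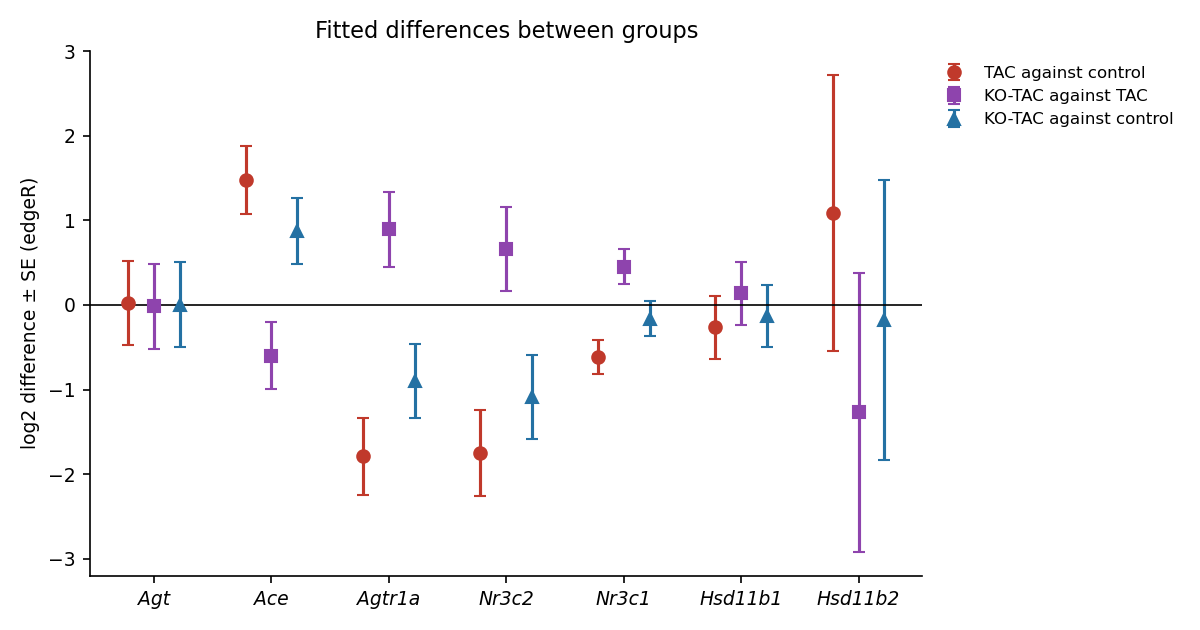
Fitted log2 differences (vertical axis, edgeR, bars are SE) of the 7 genes tested in the 3 comparisons of 3 hearts each. For TAC against control Ace lies at 1.47, Agtr1a at -1.79, Nr3c2 at -1.75 and Nr3c1 at -0.61, and the KO-TAC against control values of Ace, Agtr1a and Nr3c2 lie nearer to 0.

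**Figure D4:**
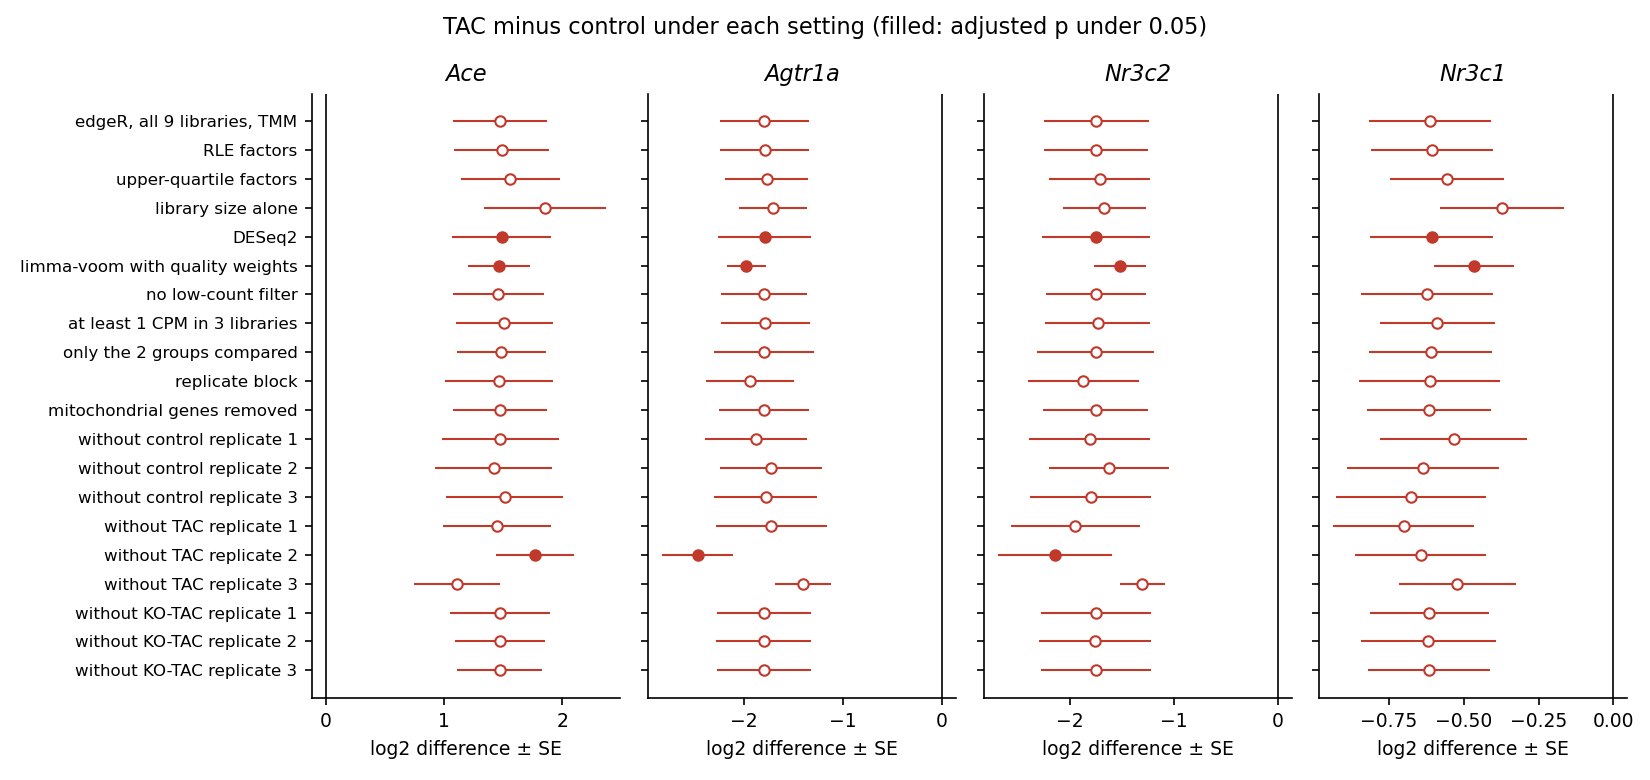
Log2 difference of TAC from control (horizontal axes, each with its own range, bars are SE) for Ace, Agtr1a, Nr3c2 and Nr3c1 under edgeR with all 9 libraries and under the 19 alternatives; filled points have an adjusted p under 0.05. The sign never changes, and the filled points belong to DESeq2 and limma-voom for the 4 genes and to the fit without TAC replicate 2 for Ace, Agtr1a and Nr3c2.

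The genes whose levels ran most alike over the 9 libraries were ranked by the root mean square difference of centred log2 CPM among 12464 genes. They were Sulf1 (0.166), Tsku (0.173) and Pdpn (0.199) for Ace, and Gja3 (0.136), Rnf150 (0.171) and Lamb3 (0.195) for Agtr1a. For Nr3c2 they were Zfp536 (0.231), Gca (0.234) and Tspyl5 (0.248), and for Nr3c1 Tbccd1 (0.0836), Dip2b (0.0994) and Ttc39b (0.0995). For Hsd11b1 they were Hspb2 (0.102), Hmgb1-ps3 (0.145) and Gstm5 (0.145), and for Agt Zscan2 (0.188), Dipk2a (0.275) and Rsph3a (0.300). Ace and Agtr1a had differences of 0.722 and 1.0 from their own means on this scale, which gives the size of the variation being matched.

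The rest of the pathway was read from 5 lists, of which edgeR called 0 genes in any comparison at an adjusted p under 0.05. Of 21 genes that process angiotensin peptides or make aldosterone, 14 passed the count filter. In TAC against control 0 were higher and 1 was lower at an edgeR unadjusted p under 0.05 (all genes 13.2% and 8.08%), with a median log2 difference of -0.30 against 0.03 over all genes, and DESeq2 called 0. Ren1, the gene of renin, and Cyp11b1 and Cyp11b2, the last enzymes of corticosterone and aldosterone synthesis, had 0 counts in all 9 libraries. The 4 genes of the list with the highest level were Ctsd (cathepsin D, an acid protease), Lnpep, which binds angiotensin IV, and the peptidases Prep and Nln. Their log2 differences of TAC from control were -0.53, -0.68, -0.67 and -0.48.

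Of 27 partners and downstream signalling genes of the angiotensin receptors, 25 were tested. In TAC against control 6 were higher and 2 lower at an edgeR unadjusted p under 0.05, which is 24% and 8% of the list against 13.2% and 8.08% of all genes. The median log2 difference was 0.14, and DESeq2 called 2 higher and 0 lower (all genes 5.67% and 2.87%). The most abundant were Rgs5 (a brake on G proteins, in pericytes), Mtus1 (a partner of the type 2 receptor), Gna12 (a G protein) and Rcan1 (a target of calcineurin). For Rcan1 the control hearts had 59.5, 43.7 and 60.1 CPM, the TAC hearts 81.4, 195 and 119 CPM and the KO-TAC hearts 63.1, 116 and 156 CPM. Each operated heart was above every control heart, with a log2 difference of TAC from control of 1.28 (SE 0.40), which had an adjusted p of 0.15 in edgeR and 0.031 in DESeq2. The other 3 had log2 differences of -0.13, -0.59 and -0.84.

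Of 19 chaperones and cofactors of the corticosteroid receptors, 2 were higher and 5 lower at an edgeR unadjusted p under 0.05 in TAC against control, which is 10.5% and 26.3% of the list against 13.2% and 8.08% of all genes. The median log2 difference was -0.15, and DESeq2 called 0 higher and 2 lower (all genes 5.67% and 2.87%). The most abundant were the chaperones Hsp90ab1 and Hsp90aa1, the co-chaperone Fkbp4 and the corepressor Ncor1, with log2 differences of -0.15, 0.77, -0.74 and -0.75. H6pd, chosen after its values were seen because it supplies the cofactor of Hsd11b1, averaged 38.3 ± 2.31, 26.6 ± 5.37 and 26.1 ± 4.98 CPM in control, TAC and KO-TAC hearts.

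Most of the listed genes known to respond to the corticosteroid receptors stood the other way from the receptors in TAC against control, 16 higher and 4 lower by fitted sign. The list was chosen with earlier results of these data known, so its counts are a description. Of 20 such genes, 13 were higher and 1 was lower in TAC than in control at an edgeR unadjusted p under 0.05, where all genes had 13.2% higher and 8.08% lower. The median log2 difference was 1.10, and DESeq2 called 13 higher and 0 lower (all genes 5.67% and 2.87%). The count of higher genes was 13 both without TAC replicate 2, where 20.8% of all genes were higher, and without TAC replicate 3, where 7.86% were. In KO-TAC against TAC, 0 were higher and 12 were lower (all genes 2.94% and 4.51%), with a median of -1.01, and DESeq2 called 0 higher and 7 lower (all genes 0.409% and 0.614%). In KO-TAC against control 2 were higher and 1 lower (all genes 3.52% and 2.24%), with a median of 0.20. Without TAC replicate 2 the lower count of KO-TAC against TAC was 12 (all genes 12.8%) and without TAC replicate 3 it was 13 (all genes 2.27%). Many of these genes also respond to other signals. Both comparisons with TAC use the same 3 TAC hearts, so their opposite directions are partly built in. Markers of epicardium and mesothelium (6 genes, none at 0 throughout) summed to 7.34 to 16.2 CPM in control hearts, 24.4 to 27.5 CPM in TAC hearts and 5.69 to 12.4 CPM in KO-TAC hearts. In TAC replicate 3 that sum was nearly all Wt1, at 21.7 CPM, and the other 5 lay within or below the control range there, with Upk3b at 0.417 CPM and Lrrn4 at 0. The part of these markers in the counts was not tested.

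The most abundant of these targets were Pdk4, Klf9, Tsc22d3 and Mt1, and they did not move as one. Tsc22d3, which encodes the glucocorticoid-induced leucine zipper, had 51.1, 60.1 and 54.1 CPM in the controls. The TAC hearts had 146, 131 and 160 CPM, and the KO-TAC hearts 107, 75.6 and 37.7 CPM. The TAC hearts were above all others, with a log2 difference from control of 1.40 (SE 0.34), which had an adjusted p of 0.14 in edgeR and 0.0041 in DESeq2. Mt1, a metallothionein, had log2 differences of 1.31 for TAC against control and -0.94 for KO-TAC against TAC. Klf9, a transcription factor, was not higher (-0.60), nor was Pdk4, a brake on glucose oxidation (-1.17, SE 1.0).

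Sgk1, the kinase that carries much of the aldosterone response in kidney, was chosen after its values were seen. The controls had 39.1, 53.8 and 47.0 CPM, the TAC hearts 165, 85.2 and 92.8 CPM and the KO-TAC hearts 43.3, 33.9 and 30.4 CPM. The TAC hearts were above all others and the KO-TAC hearts overlapped the controls. The log2 difference of TAC from control was 1.29 (SE 0.29). Its adjusted p was 0.13 in edgeR and 0.0020 in DESeq2. From TAC to KO-TAC it was -1.67 (SE 0.29), with an adjusted p of 0.24 in edgeR and 3.5e-05 in DESeq2. Fkbp5, chosen likewise, a co-chaperone that glucocorticoids induce, measured 13.5, 70.3 and 65.0 CPM in TAC hearts, 6.92 to 15.6 CPM in control hearts and 13.3 to 16.1 CPM in KO-TAC hearts. Its excess was thus in TAC replicates 2 and 3 and not in replicate 1.

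Of 18 matrix and inflammation genes known to respond to angiotensin II or aldosterone, 14 were higher and 0 lower in TAC than in control at an edgeR unadjusted p under 0.05 (all genes 13.2% and 8.08%), with a median log2 difference of 1.33, and DESeq2 called 11 higher (all genes 5.67%). Without TAC replicate 3 the higher count was 9 (all genes 7.86%) and the median 0.77. Without TAC replicate 2 the count was 16 and the median 1.69, in a fit where 20.8% of all genes were higher. In KO-TAC against TAC 0 were higher and 7 lower (all genes 2.94% and 4.51%), with a median of -1.02 and 4 lower by DESeq2 (all genes 0.614%). Without TAC replicate 3 the lower count was 4 (all genes 2.27%) and the median -0.48. They were 14 and -1.35 without TAC replicate 2, in a fit where 12.8% of all genes were lower. Here too the shared TAC hearts build in part of the opposite direction, and the list was chosen with earlier results known. The most abundant were Ccn2, a matricellular growth factor, Postn (periostin) and the collagen genes Col1a1 and Col3a1, the last pair of which are also on the fibroblast marker list. For Ccn2 the controls had 42.0, 56.9 and 50.7 CPM, the TAC hearts 266, 224 and 384 CPM and the KO-TAC hearts 136, 147 and 79.1 CPM. The 3 groups did not overlap for Ccn2. The summed fibroblast markers given above were highest in the same TAC replicates 1 and 3 in which Postn was highest, at 409 and 1074 CPM against 45.8 CPM in TAC replicate 2. The summed endothelial markers given with Ace were high in those hearts too, as was the sum of the 7 macrophage markers. That sum was 189.1 to 204 CPM in control hearts, 280.3, 178.6 and 385.7 CPM in TAC replicates 1, 2 and 3 and 348.3, 215.2 and 198.1 CPM in KO-TAC hearts. In TAC against control 2 of the 7, C1qa and C1qb, were higher at an edgeR unadjusted p under 0.05, and none was at 0. By fitted sign 5 of the 7 macrophage markers were higher and 2 lower, Adgre1 (log2 -0.34) and Csf1r (log2 -0.06). The part of these markers in the counts of this list was not tested.

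**Figure D5:**
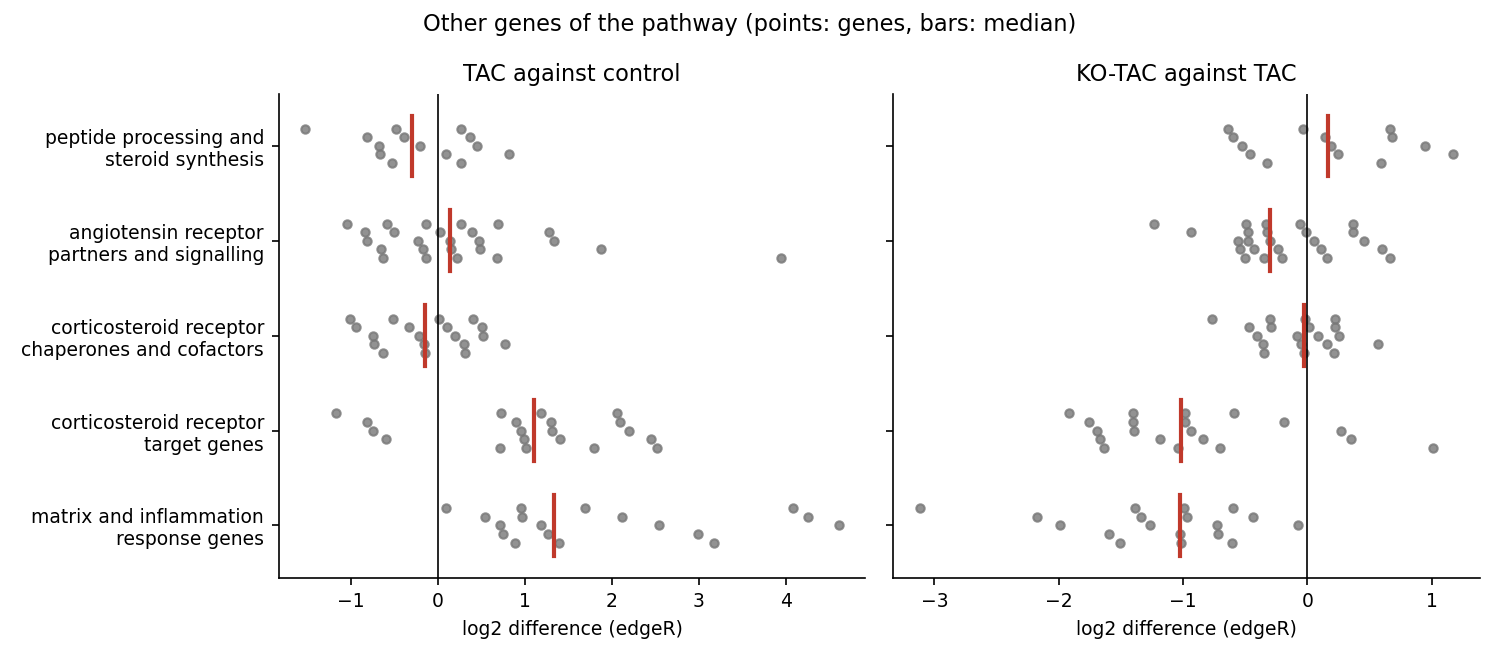
Log2 differences (horizontal axes, edgeR) of the tested genes of the 5 lists (points, spread vertically only for legibility) with each list's median (red bar), for TAC against control and KO-TAC against TAC, which share the 3 TAC hearts. The medians of the receptor target list lie at 1.10 and -1.01 and those of the matrix and inflammation list at 1.33 and -1.02, while the other 3 lists lie within 0.31 of 0.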

How the data were processed

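Total RNA of whole mouse hearts was made into libraries with a strand-keeping kit, per the labels' protocols. The authors deposited 1 table of raw, unnormalized counts (whole numbers, with rows named by symbol and 110 rows repeating a symbol). Per the submitters' processing notes, reads went through HISAT2 (2.2.1), StringTie (2.2.1), Trim Galore (0.6.10), SAMtools (1.15) and DESeq2 (1.42.0) in an order not stated there, on mm10, also named as GRCm38. For the counting itself, the annotation, strand setting and treatment of multi-mapping reads were not given in the sources used here. Columns were matched to samples by label (TAC columns numbered 2 to 4 in the table are replicates 1 to 3 in the titles). Whether every heart is from a different mouse is not in the labels, and the p-values speak only for the spread among these libraries.

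Differences were tested two-sided with the quasi-likelihood functions of edgeR 4.0.16 in R 4.3.3 (glmQLFit, glmQLFTest). A single model of group held all 9 libraries, scaled by TMM. Genes were kept by filterByExpr (min.count 10), and p-values were adjusted by Benjamini and Hochberg's method over the 19051 kept. The biological coefficient of variation was 42.1%. The code was tested on simulated data, where it had to pass only at a spread below that of these data. Alternatives were DESeq2 1.42.0, limma 3.58.1 (voom with sample quality weights), other scalings and filters, a replicate block, only the groups compared, mitochondrial genes removed and each library left out; ratios to summed markers and list counts without TAC replicates 2 and 3 were added after seeing the data. Libraries of a group differed by more than sampling noise in every pair (lowest chi-square over its degrees of freedom, 21.78). Positions and exon lengths are from GENCODE M21 on GRCm38, and promoters from RefSeq on GRCm38.p6.

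Named were the 8 genes, Myc, the 4 genes of each pathway list with the highest mean CPM (none passed the adjusted test) and the 3 genes most alike to each member with at least 1 CPM; others are marked where they appear. The members and lists were chosen with earlier results of these data known.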

Additional observations from a re-analysis of the deposited data

How the results depend on the processing

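Of the 21 log2 differences (7 genes, 3 comparisons), those of Ace, Agtr1a and Nr3c2 kept their sign under all alternatives run in all 3 comparisons, and that of Nr3c1 did in both comparisons with TAC. With 3 hearts a group and a biological coefficient of variation of 42.1%, the adjusted edgeR test called 0 genes. In 1 TAC heart the cardiomyocyte markers were near those of the controls. Calls thus rest on the tool and on single libraries, and the cause was not tested. A filter of 1 CPM in 3 libraries left no value for Hsd11b2, nor did fitting only KO-TAC and control.

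Genes called in TAC against control numbered 1626 by DESeq2, 7230 by limma-voom and 0 to 5477 with a library left out, the highest without TAC replicate 2; members called were 4, 4 and 0 to 3. For KO-TAC against TAC the genes were 195, 996 and 0 to 13, and the members 0, 1 and 0. For KO-TAC against control they were 89, 991 and 0 to 4, with 30 when only those 2 groups were fitted and 2 with no filter on low counts, and the members 0, 3 and 0.

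Signs changed for the following. Agt was -0.10 by limma-voom and -0.54 to 0.35 with a library left out in TAC against control. In KO-TAC against TAC it was 0.053 by library size alone and -0.41 to 0.54 with a library left out. In KO-TAC against control it was -0.0057 by RLE factors and by DESeq2, -0.13 by limma-voom, -0.020 without mitochondrial genes and -0.39 to 0.26 with a library left out. Hsd11b1 was -0.56 to 0.089 with a library left out in TAC against control, -0.22 to 0.43 in KO-TAC against TAC (-0.11 by limma-voom) and 0.083 by library size alone in KO-TAC against control, where Nr3c1 was 0.054 by that scaling and Hsd11b2 was 0.17 by limma-voom and -1.20 to 0.57 with a library left out. Library size alone moved the median of all genes by 0.27 in TAC against control and by 0.24 in KO-TAC against control.

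Same-numbered hearts of different groups did not deviate together (correlations of -0.25 to 0.12), and the labels do not say that the numbers pair hearts. These correlations cannot exclude a shared origin or handling. A fit with the replicate block called 0 genes and 0 members in each comparison. In TAC against control it gave Ace 1.46 (edgeR adjusted p = 0.26), Agtr1a -1.93, Nr3c2 -1.87 and Nr3c1 -0.61, and the block turned Agt to 0.066 in KO-TAC against TAC and Hsd11b2 to 0.60 in KO-TAC against control.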
